A study of Homo sapiens with 6 samples.

Results

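Mitotic spindle and checkpoint genes were followed in the transcriptome of cells with and without ARID1A, a subunit of the SWI/SNF (BAF) chromatin remodelers. The 39 genes were picked by name from the 57820 genes in the tables, by their known roles and not by a threshold on their values, and encode mitotic kinases, the spindle assembly checkpoint, activators and targets of the anaphase-promoting complex, kinetochore proteins, kinesins and the machinery of cytokinesis. All samples came from AID-DIvA cells, a derivative of the human osteosarcoma line U2OS with an integrated, inducible AsiSI nuclease fused to an auxin-inducible degron. The cells were untreated, so the nuclease was not induced in either genotype. There were 3 WT samples and 3 ARID1A-KO samples, numbered as replicates 3 to 5 in each genotype. The study describes the replicates of its expression data as biological replicates from separate experiments, while the labels give only their numbers. ARID1A had been disrupted by CRISPR-Cas9 with guides of separate sequences, and whether they were used together is not stated. Since the clone behind these libraries is not given in the sources used here, the effects of the genotype and of a clone cannot be told apart.

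A dividing cell must attach every pair of sister chromatids to microtubules from opposite spindle poles before it separates them. Kinetochores that are not attached recruit the checkpoint proteins, which keep CDC20 from activating the anaphase-promoting complex (APC/C), a ubiquitin ligase. Once all are attached, the APC/C triggers the destruction of securin (PTTG1), which releases separase (ESPL1) to cut the cohesin that holds the sisters together. Most of these genes are transcribed in G2 and mitosis and are kept low earlier in the cell cycle, so that their RNA in a bulk sample rises with the share of dividing cells.

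RNA was measured by paired-end RNA sequencing, and the deposited counts of read pairs on the strand of the gene totalled between 54512105 and 84088708 per sample. Each of the 39 genes had between 1592 and 55011 counts in each sample, so none lay near the floor of counting. ARID1A itself had 166, 178 and 177 counts per 1000000 counts (CPM) in WT replicates 3, 4 and 5 and 25.1, 27.5 and 25.2 in ARID1A-KO, and its log2 fold change of -2.74 ± 0.07 (SE) had an adjusted p of 9.66e-08. Except for the ratios, every adjusted p comes from the quasi-likelihood test of edgeR and is adjusted by the method of Benjamini and Hochberg over all genes tested. Of the 8 mesenchymal markers checked, all had counts in every sample and their summed level was 2342 to 2597 transcripts per 1000000 (TPM) in WT and 3195 to 3543 in ARID1A-KO, but COL1A2 lay near 0. VIM alone was higher in ARID1A-KO (log2 fold change 0.84), whereas COL5A1, SPARC, THY1 and COL1A1 were lower (-1.83, -0.89, -0.87 and -0.47), and the median of the 8 was -0.46. The summed TPM of 6 epithelial markers was 9.77 to 15.0 and that of 5 blood cell markers 0.347 to 1.72 over all samples.

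The replicates were not alike for the mitotic genes. ARID1A-KO replicate 5 held the highest ARID1A-KO value for 33 of the 39 genes (84.6%), against 41.4% of all genes tested. ARID1A-KO replicate 4 held the lowest for 31 of them (79.5%, against 28.8% of all genes), and WT replicate 4 the lowest WT value for 24 (61.5%, against 34.5%). The summed CPM of the 39 genes was 7917, 7350 and 7972 in WT replicates 3, 4 and 5 and 6958, 6777 and 7525 in ARID1A-KO, so that ARID1A-KO replicate 5 lay above WT replicate 4. Relative to the WT mean, the median of the 39 genes in ARID1A-KO replicates 3, 4 and 5 was -0.15, -0.22 and 0.01 on a log2 scale. In bulk RNA, a smaller share of cells in mitosis and less RNA of these genes per cell cannot be told apart. Cell cycle stage and culture density were not analysed here.

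**Figure D1:**
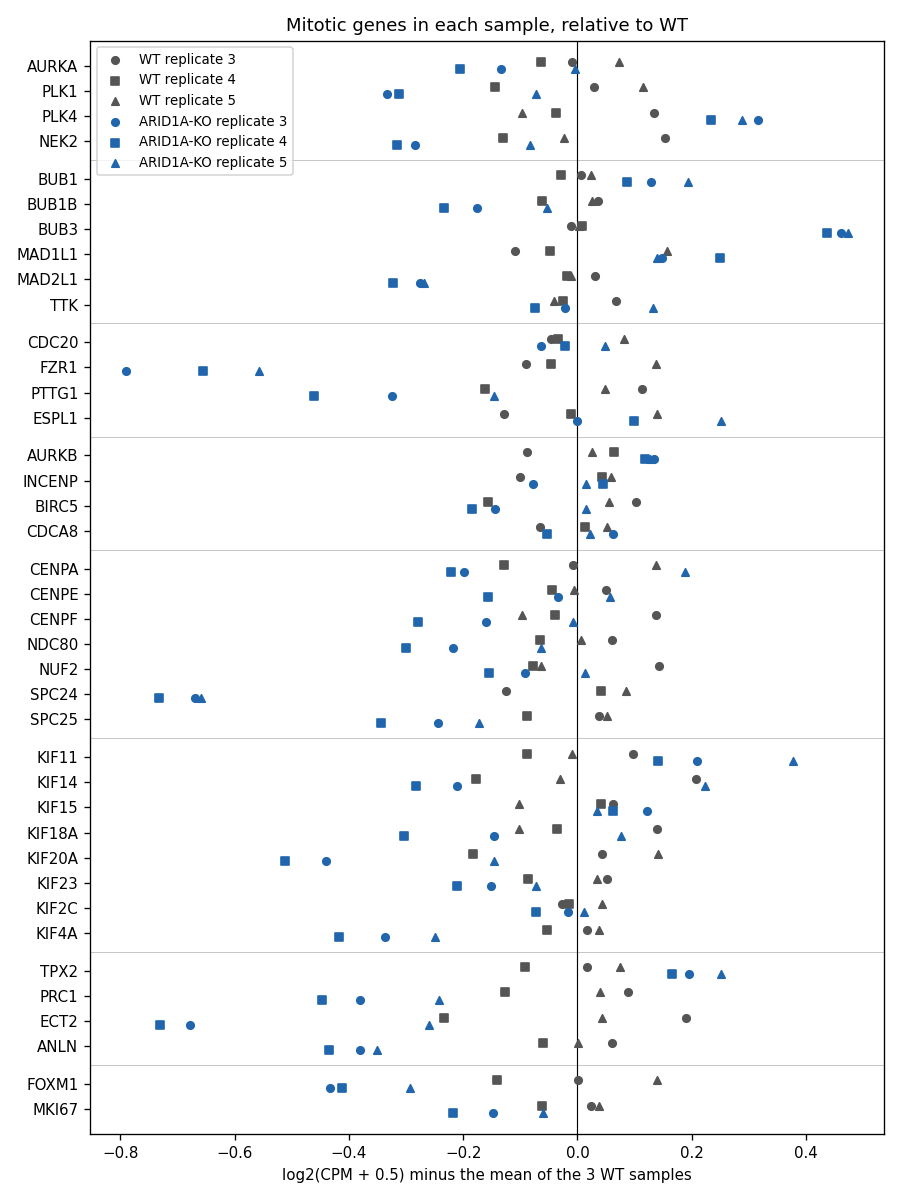
Log2(CPM + 0.5) of each of the 39 mitotic genes in each sample, minus the mean of the 3 WT samples, with genes on the vertical axis grouped by role. Grey symbols are WT and blue symbols ARID1A-KO, and the shape gives the replicate. The blue triangles of replicate 5 lie to the right of the other ARID1A-KO samples in 33 of the 39 genes, and the 3 ARID1A-KO samples of BUB3 lie far to the right and those of FZR1 and SPC24 far to the left of all WT samples.

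Of the mitotic genes, 11 fell and 4 rose in ARID1A-KO cells, each by less than 2-fold. SPC24, a subunit of the kinetochore NDC80 complex, and FZR1, the APC/C activator of late mitosis and G1, fell by the largest amounts, followed by the cytokinesis gene ECT2. BUB3, a checkpoint protein of the kinetochore, rose most. All 39 genes passed the filter on low counts, and 15 of them (38.5%) had an adjusted p under 0.05 in edgeR's quasi-likelihood test, against 36.2% of all 19599 genes tested. The number called was therefore close to that among all genes. By direction, 11 (28.2%) were lower and 4 (10.3%) higher in ARID1A-KO, where 18.4% of all genes were lower and 17.8% higher. The median log2 fold change of the 39 was -0.11 and their range -0.70 to 0.46, beside a median of 0.01 over all genes tested. None reached a 2-fold change, whereas 10.8% of all genes tested were called and changed by 2-fold or more. The CPM of WT and ARID1A-KO did not overlap for 15 of the 39 (38.5%), against 49.5% of all genes tested, and ARID1A-KO was the higher group in 6 of the 15. The standard errors of the 39 log2 fold changes ran from 0.05 to 0.14.

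The number of genes called depended on single libraries, among the mitotic genes and among all genes. Of the mitotic genes, 9 (1 higher and 8 lower) were called without ARID1A-KO replicate 3. The number was 10 (3 higher and 7 lower) without ARID1A-KO replicate 4 or without WT replicate 3. It was 11 (3 higher and 8 lower) without WT replicate 5 and 15 (2 higher and 13 lower) without WT replicate 4. Without ARID1A-KO replicate 5 it was 17 (2 higher and 15 lower). Of all genes tested, 5731 of 20106 were called without ARID1A-KO replicate 3 and 5285 of 20158 without ARID1A-KO replicate 4. Without WT replicates 3, 4 and 5 these were 5657 of 20137, 6999 of 20100 and 6036 of 20183. Without ARID1A-KO replicate 5 they were 7050 of 19991, against 7099 of 19599 with all samples. BUB3, MAD2L1, FZR1, SPC24, KIF4A, PRC1, ANLN and FOXM1 kept their call when any sample was left out and under each of the other settings tried, and the other 7 called genes lost it in some fits with a sample left out.

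**Figure D2:**
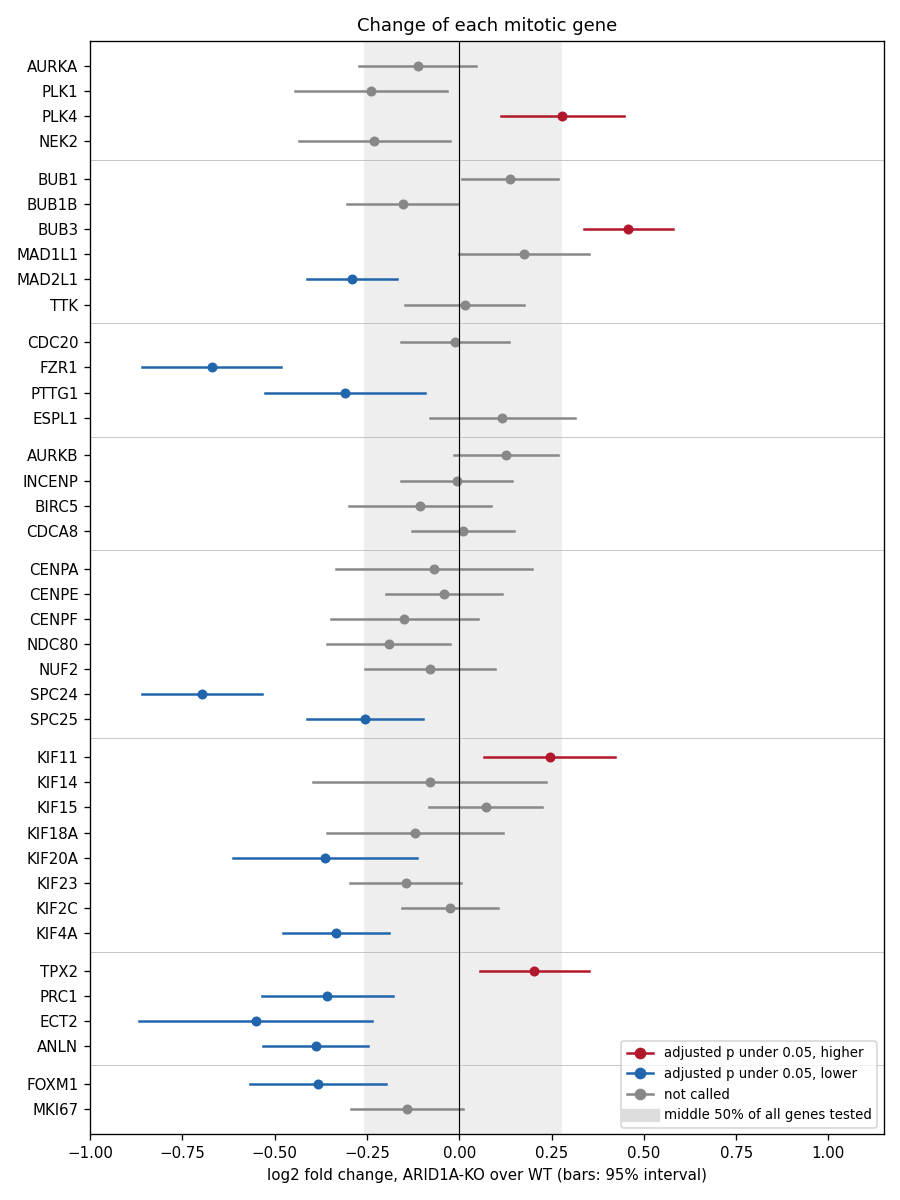
Log2 fold change of each of the 39 mitotic genes in ARID1A-KO over WT, with bars for the 95% interval and genes grouped by role. Blue points are the 11 genes called lower, red points the 4 called higher and grey points those not called, and the grey band holds the middle 50% of all genes tested (-0.25 to 0.28). SPC24 (-0.70), FZR1 (-0.67) and ECT2 (-0.55) lie farthest to the left and BUB3 (0.46) farthest to the right.

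Promoters of genes transcribed in G2 and mitosis are known for the cell cycle gene homology region (CHR, TTTGAA or TTCGAA), bound by the MuvB core of the DREAM and B-MYB complexes, and for CCAAT boxes, bound by NF-Y. These letters were searched on both strands in RefSeq promoter sequences of GRCh38.p14, each from 250 bases before to 50 bases after a gene's start. TTTGAA reads TTCAAA and CCAAT reads ATTGG on the other strand, TTCGAA reads the same on both, and TTTGAATTGG is an overlap of TTTGAA and ATTGG. Of the 39 genes, 33 had a promoter in the table, and AURKA, BIRC5, BUB3, FOXM1, TPX2 and TTK had none. In at least 1 listed promoter, TTTGAA or TTCGAA was found for 25 of the 33 genes (75.8%), against 19.5% of 27305 genes with a promoter. CCAAT was found for 24 of them (72.7%, against 39.7%), and 18 (54.5%, against 7.85%) had both in the same promoter. A CHR match was present in 7 of the 10 genes called lower, in both of the genes called higher and in 16 of the 21 that were not called, so its presence did not separate the genes that changed from those that did not.

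The 100 bases before the start are printed for 8 genes on the transcribed strand, 5′ to 3′, because they place the same motifs beside genes that fell, rose or were not called. Capitals mark TTTGAA and CCAAT on either strand. PLK1 (chr16:23678789-23678888, plus strand), CDC20 (chr1:43358881-43358980, plus strand) and MKI67 (chr10:128126424-128126523, minus strand) were not called. KIF11 (chr10:92593030-92593129, plus strand) was higher. KIF4A (chrX:70290004-70290103, plus strand), PRC1 (chr15:90994536-90994635, minus strand), ANLN (chr7:36389762-36389861, plus strand) and SPC24 (chr19:11155783-11155882, minus strand) were lower.
PLK1: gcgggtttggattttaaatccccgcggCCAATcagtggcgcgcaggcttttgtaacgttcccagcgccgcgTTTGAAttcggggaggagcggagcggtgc
CDC20: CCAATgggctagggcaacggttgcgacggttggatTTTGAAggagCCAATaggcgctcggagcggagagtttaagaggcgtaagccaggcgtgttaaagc
MKI67: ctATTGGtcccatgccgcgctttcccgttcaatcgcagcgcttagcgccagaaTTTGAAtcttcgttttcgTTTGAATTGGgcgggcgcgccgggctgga
KIF11: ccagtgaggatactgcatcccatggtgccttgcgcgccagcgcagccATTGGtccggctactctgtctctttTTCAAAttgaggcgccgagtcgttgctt
KIF4A: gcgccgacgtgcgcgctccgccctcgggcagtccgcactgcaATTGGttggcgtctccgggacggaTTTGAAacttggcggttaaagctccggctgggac
PRC1: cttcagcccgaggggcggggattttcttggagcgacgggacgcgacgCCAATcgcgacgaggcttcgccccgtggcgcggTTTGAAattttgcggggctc
ANLN: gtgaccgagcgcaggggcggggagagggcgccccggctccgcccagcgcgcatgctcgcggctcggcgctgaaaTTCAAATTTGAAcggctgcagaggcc
SPC24: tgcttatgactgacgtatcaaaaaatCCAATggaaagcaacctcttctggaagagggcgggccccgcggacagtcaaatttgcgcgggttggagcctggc
ANLN had the CHR letters on both strands side by side and no CCAAT in these bases, and SPC24 had CCAAT and no CHR letters. A match of letters is a description of the sequence and not a binding site.

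Among the APC/C activators and anaphase regulators, FZR1 and PTTG1 were lower in ARID1A-KO and CDC20 and ESPL1 were not called. FZR1 (ENSG00000105325.9, plus strand of chromosome 19 from 3506271 to 3538328 in GRCh37) encodes CDH1, the activator that takes over the APC/C after anaphase and holds it active in G1. Its level was 108, 112 and 127 CPM in WT replicates 3, 4 and 5 and 66.6, 73.2 and 78.4 CPM in ARID1A-KO. All ARID1A-KO samples lay below all WT samples, and FZR1 fell by 37.2% (log2 fold change -0.67 ± 0.08 SE, adjusted p = 0.000288). CDC20, the activator of metaphase and the direct target of the checkpoint, had 485, 489 and 530 CPM in WT and 479, 493 and 518 CPM in ARID1A-KO. These values overlapped, and the 95% interval of the log2 fold change of CDC20 ran from -0.16 to 0.13 (adjusted p = 0.904). The ratio of the TPM of FZR1 to that of CDC20 was 0.0786, 0.0803 and 0.0843 in WT and 0.0488, 0.0521 and 0.0531 in ARID1A-KO, again without overlap. It was 1 of 4 ratios, chosen after the values of the genes were seen, and its p was 0.1 (0.133 after Benjamini-Hochberg adjustment) in a two-sided exact permutation test, the smallest that 3 samples against 3 allow.

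PTTG1, the separase inhibitor securin, had 192, 159 and 184 CPM in WT and 142, 129 and 161 CPM in ARID1A-KO. ARID1A-KO replicate 5 lay above WT replicate 4, so the groups overlapped, and the log2 fold change of PTTG1 was -0.31 ± 0.10 (SE, adjusted p = 0.0321). The call of PTTG1 was lost without WT replicate 3, WT replicate 5, ARID1A-KO replicate 3 or ARID1A-KO replicate 4, with adjusted p-values of 0.105, 0.0938, 0.0879 and 0.128. ESPL1, separase itself, had a log2 fold change of 0.12 (adjusted p = 0.332).

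The 6 checkpoint genes did not move in a common direction, with 4 positive and 2 negative changes, of which BUB3 was called higher and MAD2L1 lower. BUB3 (ENSG00000154473.13, plus strand of chromosome 10 from 124913793 to 124924886) encodes the protein that brings BUB1 and BUB1B to kinetochores. It had 170, 172 and 171 CPM in WT and 236, 232 and 238 CPM in ARID1A-KO. The groups lay far apart beside the small spread within each, and BUB3 rose by 37.4% (log2 fold change 0.46 ± 0.05 SE, adjusted p = 0.000197). MAD2L1 (ENSG00000164109.9, minus strand of chromosome 4 from 120976763 to 120988229), the protein that binds and holds CDC20 while the checkpoint is active, had 90.5, 87.5 and 87.9 CPM in WT and 73.2, 70.7 and 73.5 CPM in ARID1A-KO. Each ARID1A-KO value lay below each WT value (log2 fold change -0.29 ± 0.05 SE, adjusted p = 0.00291).

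BUB1, a checkpoint kinase that also marks centromeric chromatin, had 237, 231 and 240 CPM in WT and 258, 250 and 270 CPM in ARID1A-KO. The groups did not overlap, but BUB1 did not pass the threshold (log2 fold change 0.14 ± 0.06 SE, adjusted p = 0.0925). MAD1L1, which carries MAD2L1 to kinetochores, had a log2 fold change of 0.18 (adjusted p = 0.109) and was called without WT replicate 5 (0.26, adjusted p = 0.0251). For BUB1B, the BUBR1 protein of the complex that inhibits the APC/C, it was -0.15 (adjusted p = 0.102), and it was called without ARID1A-KO replicate 5 (-0.20, adjusted p = 0.0356). TTK, the kinase MPS1 at the head of the checkpoint, had a log2 fold change of 0.01 with a 95% interval from -0.15 to 0.18 (adjusted p = 0.895).

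All 7 centromere and kinetochore genes had negative log2 fold changes, and SPC24 and SPC25 were called. NDC80, NUF2, SPC24 and SPC25 form the NDC80 complex, the main microtubule coupler of the kinetochore. SPC24 (ENSG00000161888.7, minus strand of chromosome 19 from 11242196 to 11266484) had 48.5, 54.5 and 56.2 CPM in WT and 33.1, 31.7 and 33.4 CPM in ARID1A-KO. The highest ARID1A-KO sample lay well below the lowest WT sample, and SPC24 fell by 38.3% (log2 fold change -0.70 ± 0.07 SE, adjusted p = 0.000104). SPC25, its direct partner, had 68.6, 62.9 and 69.4 CPM in WT and 56.4, 52.6 and 59.3 CPM in ARID1A-KO. These did not overlap (log2 fold change -0.25 ± 0.07 SE, adjusted p = 0.0182), but SPC25 lost its call without WT replicate 3, WT replicate 5, ARID1A-KO replicate 3 or ARID1A-KO replicate 4, at adjusted p-values of 0.0552, 0.0587, 0.0538 and 0.0926.

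The other subunits of the complex, NDC80 and NUF2, were not called. NDC80 had 164, 150 and 158 CPM in WT and 135, 127 and 150 CPM in ARID1A-KO, and NDC80 changed by -0.19 ± 0.07 on the log2 scale (SE, adjusted p = 0.0695). It was called without ARID1A-KO replicate 5 (-0.26, adjusted p = 0.0163), with the replicate number as a block (adjusted p = 0.0458) and with no count filter (adjusted p = 0.0452). NUF2 had a log2 fold change of -0.08 (adjusted p = 0.46). The TPM of SPC24 per TPM of NDC80 was 0.375, 0.461 and 0.452 in WT and 0.311, 0.315 and 0.281 in ARID1A-KO, without overlap. Its two-sided exact permutation p was 0.1 (0.133 after Benjamini-Hochberg adjustment over the 4 ratios), the smallest that 3 samples against 3 allow. This ratio too was chosen after the values of the genes were seen. The ratio of SPC25 to NDC80 was 0.833 ± 0.0235 in WT and 0.798 ± 0.0236 in ARID1A-KO (SD, n = 3; exact permutation p = 0.1), and that of NUF2 to NDC80 was 0.568 ± 0.0306 and 0.615 ± 0.0146 (SD, n = 3; exact permutation p = 0.2). CENPA, the histone variant that marks centromeres, CENPE, a kinesin of the kinetochore, and CENPF, a large kinetochore protein, had log2 fold changes of -0.07, -0.04 and -0.15 and were not called.

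**Figure D3:**
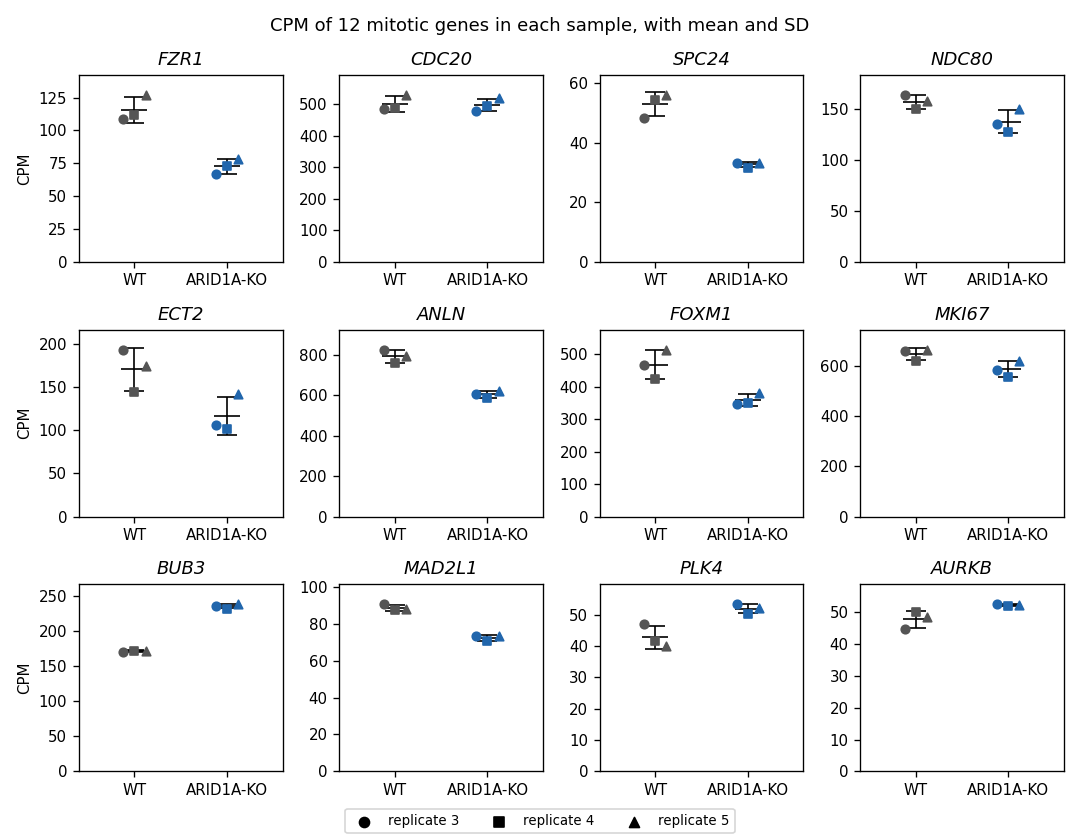
CPM of 12 mitotic genes in each sample, on linear axes that start at 0, with WT in grey and ARID1A-KO in blue, replicate 3 as circles, 4 as squares and 5 as triangles, and lines for the mean and SD of 3 samples. FZR1 and SPC24 fell from means of 115.8 and 53.1 CPM to 72.7 and 32.7, whereas CDC20, the other APC/C activator, and NDC80, in the same complex as SPC24, had means of 501.2 and 157.2 CPM in WT and 496.9 and 137.6 CPM in ARID1A-KO.

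None of the 4 genes of the chromosomal passenger complex, which corrects faulty attachments and later sets up the division plane, was called by edgeR, and none had an unadjusted p under 0.05. AURKB, its kinase, had 44.9, 49.9 and 48.6 CPM in WT and 52.5, 51.9 and 52.2 CPM in ARID1A-KO. All ARID1A-KO samples were higher than all WT samples, and AURKB changed by 0.13 ± 0.06 on the log2 scale (SE, adjusted p = 0.149). INCENP, the scaffold, BIRC5, the survivin subunit, and CDCA8, the borealin subunit, had log2 fold changes of -0.01, -0.11 and 0.01 (adjusted p = 0.948, 0.365 and 0.914).

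Of the 4 mitotic kinases outside that complex, PLK4 was called, and it was higher. PLK4 (ENSG00000142731.6, plus strand of chromosome 4 from 128802016 to 128820350) starts the duplication of centrioles. It had 46.9, 41.5 and 39.8 CPM in WT and 53.2, 50.3 and 52.2 CPM in ARID1A-KO, without overlap (log2 fold change 0.28 ± 0.07 SE, adjusted p = 0.0161). The call was lost without WT replicate 5 (adjusted p = 0.0577) or ARID1A-KO replicate 3 (adjusted p = 0.057). PLK1, which acts at centrosomes, kinetochores and the midzone, had 148, 131 and 157 CPM in WT and 115, 117 and 138 CPM in ARID1A-KO. The groups overlapped through WT replicate 4 and ARID1A-KO replicate 5, and PLK1 did not pass the threshold (log2 fold change -0.24 ± 0.09 SE, 95% interval -0.44 to -0.03, adjusted p = 0.0693). It was called lower without WT replicate 4 (adjusted p = 0.0269), without ARID1A-KO replicate 5 (0.0162), with the replicate number as a block (0.0191) and with no count filter (0.00872).

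NEK2, a kinase of centrosome separation, showed the same pattern and changed by -0.23 ± 0.09 on the log2 scale (SE, adjusted p = 0.0759), and was called without WT replicate 4 (adjusted p = 0.0339), without ARID1A-KO replicate 5 (0.0254), with the block (0.049) and with no count filter (0.0161). AURKA, the centrosomal Aurora kinase, had 162, 156 and 172 CPM in WT and 149, 142 and 163 CPM in ARID1A-KO. Its groups overlapped and AURKA changed by -0.11 ± 0.07 on the log2 scale (SE, adjusted p = 0.242).

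Of the 8 kinesins, KIF4A and KIF20A were called lower and KIF11 higher. KIF4A (ENSG00000090889.10, plus strand of chromosome X from 69509879 to 69640682), a chromosome-bound motor that also sets the length of the central spindle, had 165, 157 and 167 CPM in WT and 129, 122 and 137 CPM in ARID1A-KO. It was lower in every ARID1A-KO sample (log2 fold change -0.33 ± 0.06 SE, adjusted p = 0.00323). KIF20A, a motor of the midzone needed for cytokinesis, had 233, 199 and 250 CPM in WT and 167, 159 and 205 CPM in ARID1A-KO. ARID1A-KO replicate 5 exceeded WT replicate 4, and the log2 fold change of KIF20A was -0.36 ± 0.11 (SE, adjusted p = 0.0297), with the call lost without WT replicate 3, WT replicate 5, ARID1A-KO replicate 3 or ARID1A-KO replicate 4 (adjusted p = 0.0825, 0.107, 0.0962 and 0.115).

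KIF11 (Eg5), the motor that pushes the spindle poles apart, had 162, 142 and 150 CPM in WT and 175, 166 and 196 CPM in ARID1A-KO. It was higher in every ARID1A-KO sample (log2 fold change 0.24 ± 0.08 SE, adjusted p = 0.0362), and lost its call without WT replicate 4, WT replicate 5, ARID1A-KO replicate 3 or ARID1A-KO replicate 5 (adjusted p = 0.104, 0.0965, 0.0636 and 0.09). KIF15, which acts beside KIF11 in keeping the spindle bipolar, had a log2 fold change of 0.07 (adjusted p = 0.446). KIF23, the motor of the centralspindlin complex, had -0.15 (adjusted p = 0.119). KIF14, KIF18A and KIF2C, motors of cytokinesis, chromosome alignment and microtubule depolymerization, had -0.08, -0.12 and -0.03 and were not called.

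All 4 genes of the spindle and cytokinesis group were called without overlap between genotypes, ANLN, PRC1 and ECT2 lower and TPX2 higher. Of all genes tested, 36.2% were called and 49.5% did not overlap. The groups by role were set here, and other cytokinesis genes stand among the kinesins. Of those, KIF20A was called lower, whereas KIF14 and KIF23 were not called. ANLN (ENSG00000011426.6, plus strand of chromosome 7 from 36429415 to 36493400) encodes anillin, the scaffold of the contractile ring, and had 825, 758 and 791 CPM in WT and 607, 585 and 620 CPM in ARID1A-KO. It fell by 23.6% (log2 fold change -0.39 ± 0.06 SE, adjusted p = 0.00132). PRC1 (ENSG00000198901.9, minus strand of chromosome 15 from 91509270 to 91538859), which bundles the antiparallel microtubules of the midzone, had 258, 222 and 250 CPM in WT and 186, 178 and 205 CPM in ARID1A-KO. All ARID1A-KO samples were lower (log2 fold change -0.36 ± 0.08 SE, adjusted p = 0.00665).

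ECT2 (ENSG00000114346.9, plus strand of chromosome 3 from 172468472 to 172539264), the exchange factor that activates RhoA at the cleavage plane, had 194, 144 and 175 CPM in WT and 106, 102 and 142 CPM in ARID1A-KO. WT replicate 4 and ARID1A-KO replicate 5 lay next to each other, and ECT2 had the widest spread of the called genes (log2 fold change -0.55 ± 0.14 SE, adjusted p = 0.013). Its adjusted p was 0.0514 without WT replicate 3 and 0.0513 without ARID1A-KO replicate 4. TPX2, which activates AURKA and starts microtubule growth around chromosomes, had 391, 363 and 407 CPM in WT and 443, 434 and 461 CPM in ARID1A-KO. The groups did not overlap (log2 fold change 0.20 ± 0.07 SE, adjusted p = 0.0366), but the call of TPX2 held in 1 of the 6 fits with a sample left out, that without WT replicate 5. The adjusted p was 0.0973 without WT replicate 3, 0.123 without WT replicate 4, 0.078, 0.0825 and 0.0761 without ARID1A-KO replicate 3, 4 or 5, and 0.0523 with no count filter.

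FOXM1 was lower in ARID1A-KO, whereas MKI67 was not called. FOXM1 (ENSG00000111206.8, minus strand of chromosome 12 from 2966847 to 2986206), a transcription factor that drives many of the genes of G2 and mitosis, had 467, 424 and 515 CPM in WT and 346, 351 and 382 CPM in ARID1A-KO. No samples overlapped, and FOXM1 fell by 23.3% (log2 fold change -0.38 ± 0.08 SE, adjusted p = 0.00568). MKI67, the Ki-67 protein that coats mitotic chromosomes and is used as a marker of proliferation, had 657, 619 and 664 CPM in WT and 583, 555 and 620 CPM in ARID1A-KO. Its groups overlapped only at WT replicate 4 and ARID1A-KO replicate 5, and MKI67 changed by -0.14 ± 0.07 on the log2 scale (SE, adjusted p = 0.129).

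Levels of different genes were compared as TPM, which divides by gene length. The WT means of the 39 genes ran from 20.02 TPM for CENPE to 807 TPM for CDC20 with a median of 102 TPM, beside a median of 8.64 TPM over all genes tested, and 23 of them exceeded 100 TPM. CDC20 (807 ± 34.3 TPM, SD, n = 3) stood apart from ANLN (432 ± 22.2 TPM), and ANLN from TPX2 (353 ± 20.7 TPM). TPX2, FOXM1 (322 ± 30.6 TPM), PTTG1 (292 ± 30.4 TPM), BIRC5 (268 ± 26.8 TPM) and KIF2C (262 ± 5.11 TPM) followed, each overlapping its neighbour in this order. At the low end, CENPE (20.02 ± 0.869 TPM) lay below KIF18A (25.3 ± 2.55 TPM) without overlap, KIF18A and KIF15 (26.2 ± 1.84 TPM) overlapped, and PLK4 (31.3 ± 3.05 TPM) lay above both without overlap. Of the 38 pairs of neighbours in the order of WT levels, 11 did not overlap.

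Each mitotic gene was set beside the other tested genes with a start within 5 Mb of its own. Over all genes tested, the log2 fold change of a gene and the median of its neighbours had a Spearman correlation of 0.31. Copy number was not measured, and the part of regional shifts in the values of the mitotic genes was not tested. The 39 genes lie on 17 chromosomes. The neighbours of ECT2 had a median log2 fold change of -0.52, close to the -0.55 of ECT2. Those of KIF11 and TPX2 had 0.27 and 0.28, beside 0.24 and 0.20 for the genes themselves. The neighbours of BUB3 had 0.29, and BUB3 exceeded them by 0.17. SPC24 lay 0.41 below its neighbours, whose median was -0.28. FZR1, MAD2L1, KIF4A, ANLN and SPC25 changed among neighbours with medians between -0.06 and 0.01, FOXM1 and PTTG1 among neighbours with -0.09 and -0.13, and PRC1 and KIF20A were lower among neighbours with 0.09 and 0.05. PLK4 was higher (0.28) while its neighbours had a median of -0.26. The sign of the change was that of the neighbours for 24 of the 39 genes (61.5%) and for 60.7% of all genes tested.

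**Figure D4:**
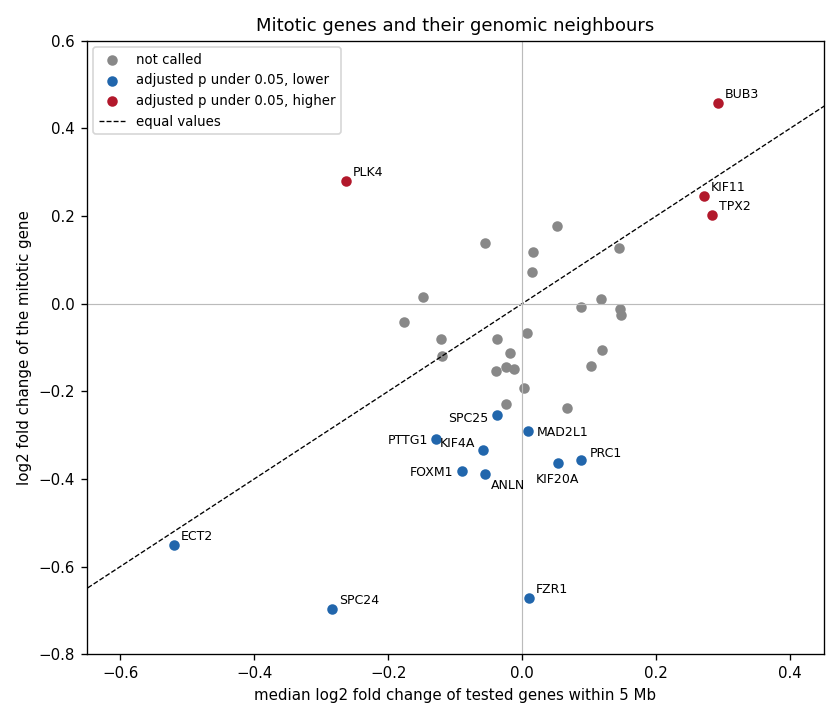
Log2 fold change of each of the 39 mitotic genes (vertical axis) against the median log2 fold change of the other tested genes within 5 Mb (horizontal axis), with called genes named and the dashed line at equal values. ECT2, KIF11 and TPX2 lie close to the line, SPC24 and FZR1 lie 0.41 and 0.68 below it, and PLK4 lies 0.54 above it.

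Other genes of mitosis and regulators of their transcription were taken from 6 lists that hold 100 genes, all tested. Of the 100, 12 are the DREAM, MuvB and B-MYB regulators. Of these, 31 (31.0%) were called, 8 higher and 23 lower, with a median log2 fold change of -0.05. Of all genes tested, 36.2% were called, 17.8% higher and 18.4% lower, and the counts of each list stand beside these shares. The list of APC/C subunits, their E2 enzymes and FBXO5 had 7 of 17 called, 2 higher and 5 lower. The small subunits ANAPC13 and ANAPC15 (both -0.53, adjusted p = 0.000309 and 0.000581) and the core subunit CDC23 (-0.42, adjusted p = 0.000796) fell most, and the neighbours of ANAPC13 had a median of -0.49. Of 28 further genes of the inner and outer kinetochore, 6 were called, 2 higher and 4 lower. CENPU, a subunit of the constitutive centromere network, fell from 59.8 ± 3.85 to 29.1 ± 0.907 CPM (SD, n = 3; log2 fold change -1.04 ± 0.07 SE, edgeR adjusted p = 9.09e-06), among neighbours with a median of 0.06. SKA2, a subunit of the microtubule-binding Ska complex, fell (-0.43, adjusted p = 0.00353), and CENPT, which links the inner kinetochore to the NDC80 complex, rose (0.43, adjusted p = 0.0116) among neighbours with a median of 0.56.

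The list of other spindle and cytokinesis genes had 8 of 21 called, 1 higher and 7 lower. BORA, an activator of AURKA towards PLK1, fell from 22.0 ± 0.813 to 10.5 ± 1.31 CPM (SD, n = 3; log2 fold change -1.06 ± 0.10 SE, edgeR adjusted p = 6.21e-05), but its neighbours had a median of -1.01. ASPM, a protein of the spindle poles, and NUSAP1, which binds spindle microtubules, fell by 0.42 and 0.28 on the log2 scale (adjusted p = 0.0217 and 0.0127). This list depended most on single samples, with 2 to 7 genes called when a sample was left out and the fewest without ARID1A-KO replicate 3 (2), ARID1A-KO replicate 4 (3), WT replicate 5 (4) and WT replicate 3 (5). The list named centriole duplication, which also holds CEP55, had 2 of 10 genes called. These were CEP63 (-0.49, adjusted p = 0.00232) and CEP192 (-0.33, adjusted p = 0.00218), both lower. CEP63 overlaps ANAPC13 on chromosome 3, so its neighbours are nearly the same as those of ANAPC13, whose median is given above. Mitotic entry had 2 of 12, WEE1, the kinase that holds back CDK1, higher (0.33, adjusted p = 0.00262) and the cyclin CCNA2 lower (-0.28, adjusted p = 0.00458), and 5 without ARID1A-KO replicate 5.

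The DREAM, MuvB and B-MYB complexes repress and activate promoters with a CHR, and 6 of their 12 genes were called, 2 higher and 4 lower. TFDP1 and TFDP2, the partners of the E2F factors, fell by 0.72 and 0.70 on the log2 scale (adjusted p = 5.1e-05 and 0.00031), and E2F4, the E2F of DREAM, rose by 0.40 (adjusted p = 0.000802). Their neighbours had medians of -0.34, -0.48 and 0.55. For comparison, 9 of 21 genes of S phase were called, 3 higher and 6 lower, with a median of -0.08. CCNE2, a cyclin of S phase entry, and MCM2 and MCM3, subunits of the replicative helicase, fell most (-0.66, -0.47 and -0.42, adjusted p = 0.000485, 0.000262 and 0.00297). Neighbour medians are given for some genes of these lists only, and not for CCNE2, MCM2 or MCM3.

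**Figure D5:**
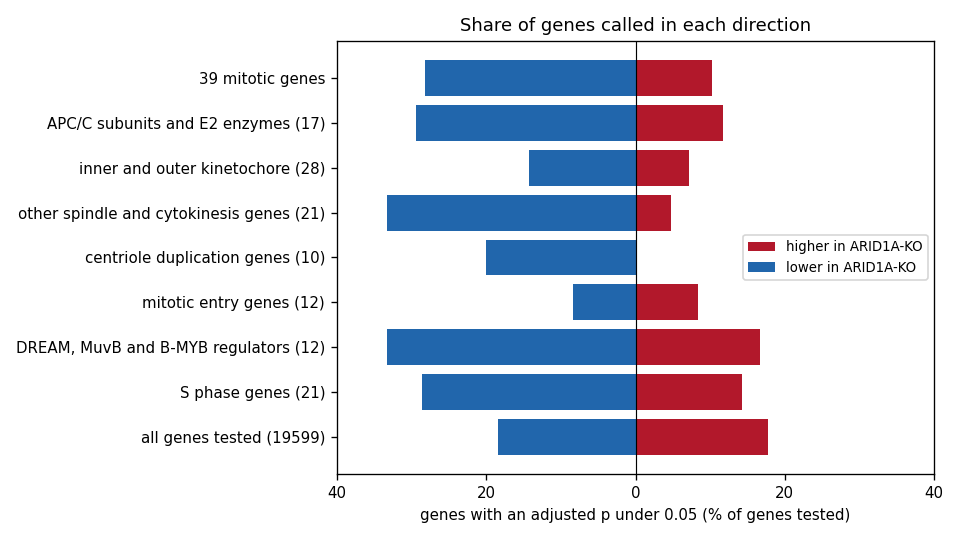
Share of the genes of each list with an adjusted p under 0.05 in edgeR's quasi-likelihood test, to the left (blue) for genes lower and to the right (red) for genes higher in ARID1A-KO, in percent of the genes tested, whose number stands beside each list. The bar of the 39 mitotic genes reaches 28.2% to the left and 10.3% to the right, and that of all genes tested 18.4% and 17.8%.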

How the data were processed

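RNA-seq libraries of untreated AID-DIvA cells, 3 WT and 3 ARID1A-KO, were analysed. Per the methods and labels, libraries were made with a stranded total RNA kit (the labels also give the molecule as polyA RNA), sequenced as paired 100 bp reads and aligned to GRCh37 with STAR in the Roddy workflow. The authors deposited whole-number featureCounts counts per gene, not normalized, and TPM values computed from the reverse-stranded counts. Forward-strand counts came to 5.83% to 6.15% of reverse-stranded counts, so the latter were used. Levels between genes are TPM as deposited.

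Genotypes came from the labels. Counts were filtered with filterByExpr, scaled by TMM and compared with edgeR's quasi-likelihood test (edgeR 4.0.16, R 4.3.3) over all 6 samples without covariates, with Benjamini-Hochberg adjustment over 19599 genes. A gene with an adjusted p under 0.05 is called. CPM are TMM-scaled, and each SE is the log2 fold change divided by the square root of its F statistic. Ratios were compared with exact permutation tests in SciPy 1.17.1. Per-sample values are given for the 12 called genes with the largest changes and for AURKA, AURKB, PLK1, BUB1, MAD2L1, CDC20, FOXM1 and MKI67, and the other lists are described by their 3 called genes with the largest changes. The samples of SPC25, KIF11, TPX2 and NDC80 were added after their values were seen. The mitotic genes and the lists were chosen with earlier results of these data known. KNL1, SGO1, SGO2, CENPS, CENPU and CENPX carry older names in the tables. Settings tried instead were RLE normalization, unstranded counts, DESeq2 1.42.0, no filter, at least 10 counts in every sample, a replicate block, an adjusted p under 0.01 and each sample left out.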

Additional observations from a re-analysis of the deposited data

How the results depend on the processing

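Unstranded counts, RLE normalization, DESeq2 and a minimum of 10 counts in every sample each left 15 of the 39 mitotic genes called, 4 higher and 11 lower. At an adjusted p under 0.01, 8 of the 39 were called (1 higher and 7 lower), against 4414 of all 19599 genes tested. Of the other spindle and cytokinesis genes, 1 was called at that threshold. With no count filter, 4 genes of the centriole duplication list were called, and 8223 of all 36390 genes tested. With 1 sample left out, between 9 and 17 of the 39 genes were called, 1 to 3 higher and 7 to 15 lower. Of all genes, 5285 to 7050 were called in these fits. The calls also included 2 to 7 of the other spindle and cytokinesis genes and 2 to 5 of the mitotic entry genes. No called mitotic gene changed sign in any of the 12 alternatives. With a sample left out, 7 genes that were not called did, between -0.048 and 0.059 for TTK, -0.045 and 0.027 for CDC20, -0.065 and 0.031 for INCENP, -0.031 and 0.043 for CDCA8, -0.22 and 0.0063 for CENPA, -0.094 and 0.014 for CENPE, and -0.26 and 0.022 for KIF14. With the replicate number as a block, 18 mitotic genes were called (4 higher and 14 lower) and 7477 of all genes. The deviations of same-numbered samples from their group means correlated at -0.24, 0.49 and 0.32 across genes for replicates 3, 4 and 5. WT replicate 3 correlated best with ARID1A-KO replicate 5 (0.41). WT replicates 4 and 5 did so with their own number, WT replicate 4 about equally with ARID1A-KO replicate 3 (0.49). Deviations from a mean of 3 samples depend on each other, so these values cannot decide whether the samples were paired. The causes of these changes were not tested. With 3 samples a genotype, standard errors of 0.05 to 0.14 limit what could be called, and the smallest called change was 0.20 on the log2 scale.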
